A study of Mus musculus with 27 samples.

Results

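The comparison described here sets pancreatic islets of mice that had been without drug for 4 days against islets at the end of a 21 day course of the drug. It used 6 of the 27 arrays of the study, 3 labelled as 4 days off and 3 labelled as 21 days on, and all 8251 genes that the array measures with a named probe set. Each gene is represented by the probe set with the highest mean level over all 27 arrays. All groups carried the same transgenes, MycER and BclXL, both under an insulin promoter, so that beta cells are the cells meant to express them. The drug is named 4-hydroxytamoxifen in the study's design and in titles, and tamoxifen in the treatment labels. The 21 days on group was dosed daily, and the 4 days off group was killed 4 days after such a course had ended. Untreated mice with both transgenes (3 arrays), and groups 2 and 6 days off drug (3 arrays each), are used below to place the levels. No group that was injected with solvent alone or that lacked MycER enters the comparison, so that the end of Myc activity and the end of dosing cannot be told apart.

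MycER is a fusion of the transcription factor Myc with the hormone-binding part of the estrogen receptor, and it is active only while the drug is bound. Myc drives cell growth and division, and in beta cells it can also trigger cell death, which BclXL blocks. In this mouse model, islets enlarge while Myc is active and shrink again once the drug is withdrawn. Beta cells make and secrete very large amounts of insulin, and they depend on the folding machinery of the endoplasmic reticulum (ER) and on its quality control, the unfolded protein response.

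Islets were cut out of tissue sections with a laser, and their RNA was amplified in 2 rounds and hybridised to a mouse Affymetrix array. Values are RMA levels on a log2 scale, so that a change of 1 is 2-fold. A change is given ± its standard error (SE) from limma and a mean level ± the standard deviation (SD) over the arrays of its group, with n = 3 in every group. A gene is called higher or lower when its Benjamini-Hochberg adjusted p from limma is under 0.05. The labels do not say that each array came from a separate mouse, and p-values therefore measure the spread between these samples only. The array reports no depth, and the small number of arrays limits the precision. The 3′ minus 5′ signal of the Gapdh control, which rises as RNA is degraded or shortened in amplification, was 4.77 to 4.92 at 21 days on and 3.46 to 4.06 at 4 days off, without overlap. The same measure for actin overlapped, at 2.12 to 2.79 against 2.25 to 2.82. The Y-linked gene Eif2s3y read 6.36, 4.59 and 7.02 at 21 days on and 4.27, 4.43 and 6.75 at 4 days off. Both groups thus mix arrays with high and low levels, but not in the same proportion. In bulk RNA of this kind, fewer cells of a type and less RNA per cell cannot be told apart.

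The groups could not be checked through Myc itself. The probe set for Myc read 3.52, 3.81 and 3.52 at 21 days on and 3.81, 4.19 and 4.13 at 4 days off, close to the median of 4.04 over 15 control probe sets for bacterial transcripts, whose means ran from 3.59 to 7.05. A level between those limits was not separated here from background signal. This holds, for example, for Pdx1, Sdha, Cck and Ect2 in both groups and for Mki67 and Idi1 in 1 group. It also holds for Creld2, Tars, Msmo1 and Nfkbiz at 21 days on, so that the sizes of their changes are uncertain. The genes given are examples, and other dim genes named below share this limit. The brightest of 4 probe sets for Esr1, the estrogen receptor, read 11.09, 10.01 and 10.30 at 21 days on and 11.58, 11.29 and 12.04 at 4 days off, a rise of 1.17 ± 0.28 (adjusted p = 0.0247). Another Esr1 probe set fell by 0.41 (adjusted p = 0.0428), and the remaining ones changed by -0.28 and -0.03 without a call. Which of them lie in the part of the receptor that MycER carries was not tested. The cells themselves were islet cells by their markers. Ins2, 1 of the 2 mouse insulin genes, was at 13.72 ± 0.03 and 13.74 ± 0.10, and Iapp, the amyloid peptide released with insulin, at 12.58 ± 0.13 and 12.80 ± 0.07.

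Some genes that fold and export secretory proteins, some proteasome subunits and a few genes of beta cell function were called higher at 4 days off, while Sox4, some spindle motors and several genes that stood high at 21 days on were called lower. Over all genes, 570 were called between 4 days off and 21 days on (6.91% of those tested), 373 higher (4.52%) and 197 lower (2.39%). Rises were larger than falls. The median change of genes called higher was 0.72, with a range of 0.30 to 2.11, and that of genes called lower was -0.40, with a range of -0.27 to -1.66. At least 2-fold changes were reached by 60 of the genes called higher and 10 of those called lower. Of the 570, 556 had all arrays of one group above all of the other. This follows largely from their selection on these same arrays and does not support the calls. The share over all genes was 40.2%. With arrays centred on their medians, 406 genes were called higher and 107 lower, so that 79.1% of the calls were rises, against 65.4% without centring. With arrays weighted by their quality the split turned, with 1022 called higher and 1339 lower (43.3% rises).

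The number of calls depended on single arrays. Without replicate 1 of 4 days off no gene was called by limma (lowest adjusted p 0.0530, and 1524 genes at an unadjusted p under 0.05). That loss applies to every call between these groups named in what follows. All 570 genes kept their direction and an unadjusted p under 0.05 in that fit. They had been selected with arrays that the fit shares, so that this does not support the calls. Leaving out replicate 2 of 21 days on left 34 calls, replicate 1 of 21 days on 120, replicate 3 of 4 days off 182, and replicate 2 of 4 days off 204. Without replicate 3 of 21 days on, 771 genes were called, 458 of them among the 570. When the Gapdh measure entered the fit, 295 genes were called, of which 218 were among the 570. When the level of Eif2s3y entered it, 381 were called, 371 of them among the 570. In 5 of the 6 fits that leave out 1 array, all but the fit without replicate 1 of 4 days off, 25 genes were called. They included the ER stress genes Xbp1 and Creld2, the proteasome subunit Psma4, the mitochondrial genes Mrpl2, Mrpl41, Ndufb6 and Txnrd2, and the sterol enzyme Sqle. The developmental transcription factor Sox4 and the mitotic gene Gtse1 were among the 4 of these 25 that fell, with Baiap2 and Utrn.

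The direction of a change moved with the level of the gene. With genes split by mean level into 5 equal groups, the dimmest had a median change of -0.137, with 14 called higher and 36 lower. In the brightest it was 0.102, with 127 called higher and 21 lower. The median over all genes was -0.06. The lower quartile of the levels of an array was 5.48 to 5.59 at 21 days on and 5.38 to 5.46 at 4 days off, without overlap, and the part of this shift in the small falls was not tested.

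**Figure D1:**
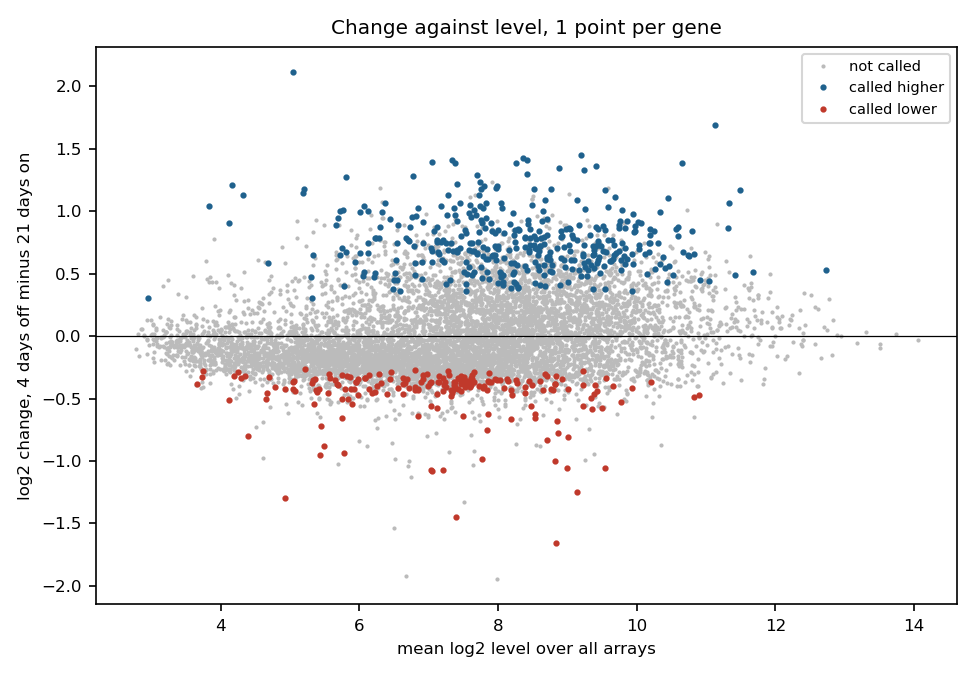
Change in log2 level between 4 days off and 21 days on (vertical axis) against the mean log2 level over all arrays (horizontal axis), 1 point per gene, with genes called higher in blue and lower in red. The rises spread from 0.30 to 2.11 and lie mostly at high levels, whereas the falls have a median of -0.40 and lie at all levels, with 10 of them at least 2-fold.

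Of 40 gene lists, 33 had at least 1 called member. The list for ER protein folding and the unfolded protein response held the highest share of genes called higher, 19 of 54 measured (35.2%, against 4.52% of all genes). It was followed by the proteasome with 10 of 39 (25.6%) and by prohormone processing and secretory granules with 4 of 22 (18.2%). Among lists of 20 or more members, the share called lower was highest for FoxO targets and growth restraint, with 4 of 38 (10.5%, against 2.39% of all genes). The lists were drawn up with results from these arrays in view, and their counts are descriptions without a test.

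**Figure D2:**
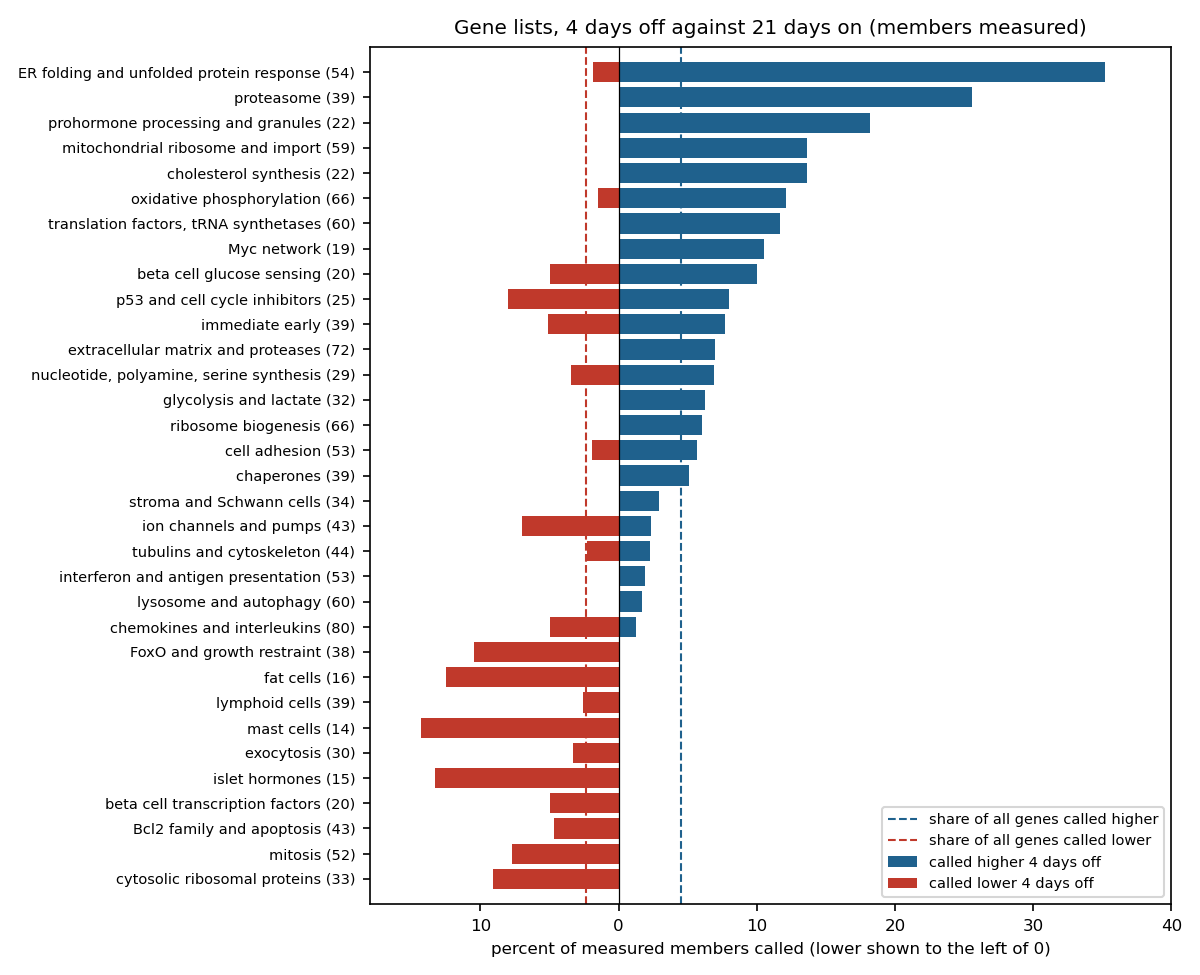
Share of the measured members of each list, in percent, that were called higher (blue, to the right) or lower (red, to the left) at 4 days off against 21 days on, for the 33 lists with a call; numbers in brackets are members measured and dashed lines are the shares over all genes. ER folding (35.2% higher) and the proteasome (25.6% higher) extend farthest to the right of the dashed line at 4.52%.

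In the list for ER folding and the unfolded protein response, 19 of 54 members rose between 21 days on and 4 days off, 1 fell and 34 were not called. In 12 the change was at or below 0. The median change of the list was 0.39, against -0.06 over all genes. In 26 of the 54 all arrays at 4 days off lay above all at 21 days on (the share over all genes was 16.0%). Without replicate 1 of 4 days off none of the members was called, and without replicate 2 of 21 days on 2 were. When the Gapdh measure entered the fit, 16 were. Hspa5, Manf, Pdia6, Xbp1, Dnajb11 and Ero1b were named by a fixed rule, and the other members of this list were chosen after their values were seen.

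Several of these genes are known to carry an ER stress element in their promoters, a sequence to which Atf6 binds together with the factor NF-Y. The element was searched for as CCAAT, any 9 bases and CCACG, on both strands of RefSeq windows from 250 bases before to 50 after each gene start (build GRCm38.p6). It was found in 12 of 6572 measured genes with a window (0.183%). Of the ER folding genes with a window, 6 of the 15 called higher held it, against 2 of the 30 others (6.67%). The element was chosen after the calls were seen, and these counts are a description without a test. The stretches around it in the list's 8 genes that hold it are printed because they are what these genes share. Capitals mark the element, which reads in the reverse direction where it begins with CGTGG.
Hspa5, chr2:34772015-34772053, plus strand: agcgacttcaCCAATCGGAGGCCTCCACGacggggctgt
Hsp90b1, chr10:86705523-86705666, minus strand: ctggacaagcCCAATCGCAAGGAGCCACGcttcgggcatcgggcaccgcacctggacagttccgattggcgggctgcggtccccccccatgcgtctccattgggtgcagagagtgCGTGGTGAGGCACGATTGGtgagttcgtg
Pdia6, chr12:17266481-17266519, plus strand: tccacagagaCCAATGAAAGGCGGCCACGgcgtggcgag
Dnajc3, chr14:118937817-118937855, plus strand: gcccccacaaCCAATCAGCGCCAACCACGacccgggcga
Creld2, chr15:88819510-88819548, plus strand: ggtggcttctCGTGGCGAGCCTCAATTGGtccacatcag
Ero1b, chr13:12565672-12565710, plus strand: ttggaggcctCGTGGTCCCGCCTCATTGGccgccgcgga
Calr, chr8:84847065-84847103, minus strand: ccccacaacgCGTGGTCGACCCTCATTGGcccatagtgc
Canx, chr11:50325790-50325828, minus strand: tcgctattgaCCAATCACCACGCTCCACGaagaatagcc

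The element began 65 bases before the start of Hspa5, 98 before that of Pdia6, 105 before Dnajc3, 126 before Creld2 and 201 before Ero1b. Hsp90b1 held 2 copies, at 212 and 107 bases. Calr and Canx, the ER chaperones calreticulin and calnexin, hold the element too and were not called, with changes of -0.01 (adjusted p = 0.974) and -0.35 (adjusted p = 0.0646). The probe set for Calr read 4.38 at 4 days off, near the median of the bacterial controls. The other 4 genes with the element, Adcy3, Pan2, Ptgdr2 and Zfp57, are outside the list, and none was called. No gene called lower held it, of 152 with a window. A match is a stretch of letters, and binding was not measured.

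Hspa5 encodes BiP, the main chaperone of the ER. It read 9.81, 9.96 and 10.39 at 21 days on and 11.62, 11.34 and 11.36 at 4 days off, a rise of 1.39 ± 0.30, or 2.61-fold (adjusted p = 0.0166). All arrays at 4 days off were higher than all at 21 days on, and they were also higher than the untreated mean of 10.51 ± 0.58, from which they differed by 0.93 (adjusted p = 0.0298). Hsp90b1, the ER member of the Hsp90 family, read 10.72, 10.59 and 11.05 and then 12, 11.75 and 11.80, a rise of 1.06 ± 0.23 (adjusted p = 0.0154). It too stood above untreated islets, by 0.62 (adjusted p = 0.0487).

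Co-chaperones and disulfide enzymes followed the same order. Dnajc3, a partner of BiP that also restrains the stress kinase Perk, read 7.14, 7.06 and 7.06 at 21 days on and 8.27, 8.08 and 8.51 at 4 days off (change 1.2 ± 0.27, adjusted p = 0.0179). Dnajb11, another partner of BiP, read 7.24, 6.84 and 7.66 and then 8.82, 8.40 and 8.13 (change 1.2 ± 0.29, adjusted p = 0.0247). Pdia6, a disulfide isomerase, went from 7.91, 7.84 and 8.19 to 9.56, 9.11 and 9.30 (change 1.34 ± 0.29, adjusted p = 0.0154). In none of these did the groups overlap. The other probe sets for Pdia6 changed by 0.90 and 0.17 and were not called (adjusted p = 0.0805 and 0.476). Ero1b, the oxidase that supplies disulfide bonds in beta cells, read 10.54, 10.17 and 10.29 at 21 days on and 11.15, 11.32 and 11.12 at 4 days off, a rise of 0.86 ± 0.19 (adjusted p = 0.0163). Its probe set name marks probes that may be shared with related transcripts.

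Manf, a secreted factor that is kept in the ER by BiP, rose most in the list. It read 8.14, 8.03 and 8.02 at 21 days on and 9.91, 9.20 and 9.43 at 4 days off, a rise of 1.45 ± 0.30, or 2.73-fold (adjusted p = 0.0143). Creld2, a small ER protein induced by ER stress, went from 6.45, 6.51 and 6.31 to 7.96, 7.14 and 7.72 (change 1.18 ± 0.20, adjusted p = 0.00846). Xbp1, a transcription factor of the unfolded protein response, went from 7.99, 7.72 and 8.02 to 9.27, 9.19 and 9.26 (change 1.33 ± 0.24, adjusted p = 0.00846). The arrays measure total Xbp1 transcript, and its spliced form was not measured here. The 3 genes were lower at 21 days on than in untreated islets, where Manf was at 9.49 ± 0.23, Creld2 at 8.70 ± 0.07 and Xbp1 at 9.77 ± 0.04. At 4 days off the difference from untreated was 0.03 for Manf (adjusted p = 0.962) and -0.53 for Xbp1 (adjusted p = 0.111), whereas Creld2 was still lower by 1.09 on the log2 scale (adjusted p = 0.000676).

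The remaining members called higher act in the entry of proteins into the ER, their modification, their removal or the sensing of stress. Sec61b, a subunit of the translocation channel, rose by 1.03 ± 0.20 (adjusted p = 0.0101). Srp14 and Srpr, parts of the signal recognition particle and its receptor, changed by 0.86 and 0.66, and Ssr2 and Spcs2, of the translocon-associated complex and the signal peptidase, by 0.86 and 0.64. Ostc, of the enzyme that attaches sugars to new proteins, changed by 0.84, Serp1, which binds the channel, by 0.91, and Derl2, which acts in the removal of misfolded proteins, by 0.87. Wfs1, an ER membrane protein whose loss causes diabetes in Wolfram syndrome, rose by 0.92 ± 0.24 (adjusted p = 0.035). Atf6, the membrane-bound sensor that acts on the ER stress element, rose by 0.85 ± 0.25 (adjusted p = 0.0471).

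The genes of the Perk and Atf4 branch named next were chosen after their values were seen, and the branch as a whole was not counted. None of those named was called higher. Ddit3, the death-linked factor CHOP, read 8.23, 8.04 and 8.49 at 21 days on and 7.94, 7.96 and 7.99 at 4 days off, without overlap, and its change of -0.29 was not called (adjusted p = 0.425). Trib3, a pseudokinase induced by Atf4 and CHOP, was the member called lower, with a change of -0.42 ± 0.10 (adjusted p = 0.0247). Atf4 itself changed by 0.31 (adjusted p = 0.139), Asns by 0.24 (adjusted p = 0.212) and Ppp1r15a by -0.03 (adjusted p = 0.929). Pdia3 and Dnajb9, folding genes of the same list, changed by 0.85 and 0.92 and missed the threshold (adjusted p = 0.123 and 0.0952). Hyou1 changed by -0.02 at 4.96, no brighter than the brightest bacterial control.

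Against untreated islets the same list was mixed. At 21 days on, 0 of its 54 members were called higher and 12 lower (22.2%, against 7.95% and 8.46% of all genes). At 4 days off, 12 were called higher and 7 lower than untreated (22.2% and 13.0%, against 14.1% and 12.3% of all genes). The median change against untreated was -0.26 at 21 days on and 0.05 at 4 days off. These comparisons share arrays with each other and with the main one, and their counts are not independent of it.

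**Figure D3:**
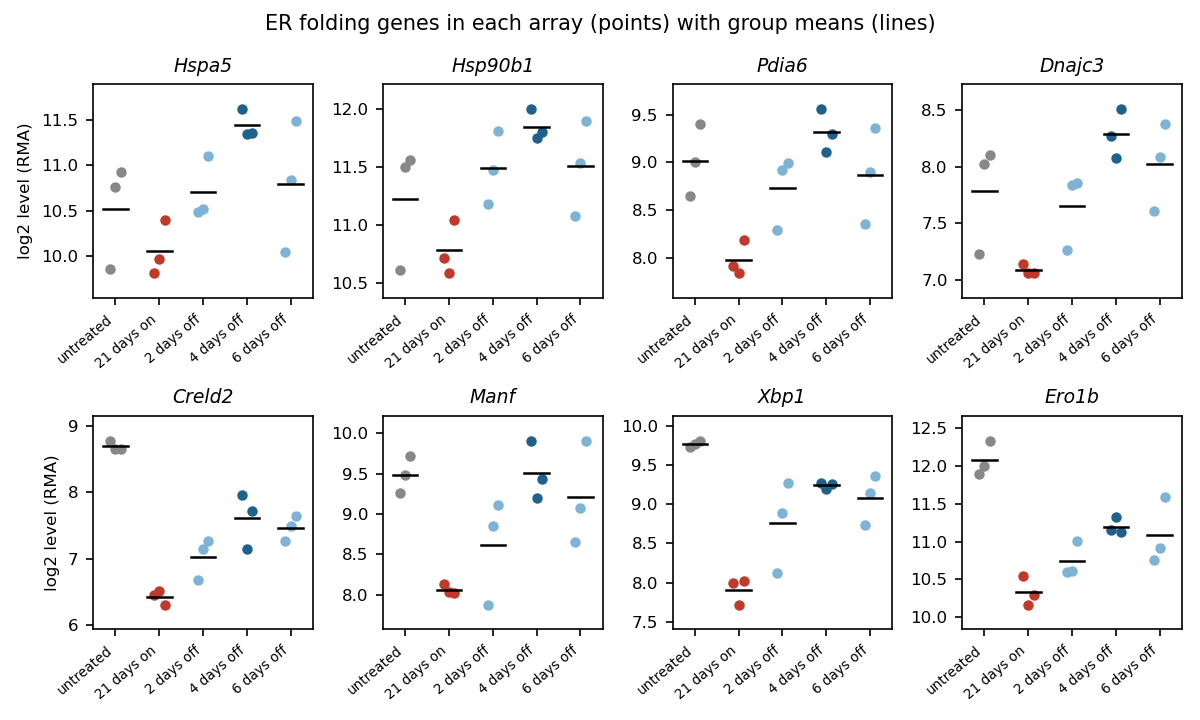
Log2 level of 8 ER folding genes in each of the 3 arrays of 5 groups (points) with group means (lines). For Hspa5 the arrays at 4 days off lie between 11.34 and 11.62 and those at 21 days on between 9.81 and 10.39; Creld2 and Ero1b are highest in untreated islets, at 8.70 and 12.07 on average.

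Of 39 measured subunits and partners of the proteasome, the complex that degrades tagged proteins, 10 rose, 0 fell and 29 were not called. The list had a median change of 0.33, and 33 members with a change above 0. Without replicate 1 of 4 days off none was called, without either of replicates 1 and 2 of 21 days on only 1 was, and 4 were called when the Gapdh measure entered the fit. Psma4, a subunit of the outer ring, read 8.22, 7.99 and 8.39 at 21 days on and 9.11, 9.09 and 9.54 at 4 days off, a rise of 1.05 ± 0.17 (adjusted p = 0.00846). Psmb5, the catalytic subunit targeted by bortezomib, went from 7.0, 7.53 and 7.79 to 9.18, 8.36 and 9.07 (change 1.43 ± 0.32, adjusted p = 0.0174). A second probe set for Psmb5 changed by -0.26 (adjusted p = 0.187). Psma7 and Psmc2, a ring subunit and an ATPase of the cap, rose by 0.93 and 0.89 (adjusted p = 0.0154 and 0.0357). Psma4 and Psma7 were also above untreated islets, by 1.12 and 1.16 (adjusted p = 0.000156 and 0.000323), whereas at 21 days on they differed from untreated by 0.07 and 0.23 without a call.

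Of the growth genes usually ascribed to Myc, none was called lower in the lists for ribosome biogenesis or for translation factors and tRNA synthetases. Ribosome biogenesis had 4 of 66 members called higher (6.06%, against 4.52% of all genes) and 0 lower, with a median change of 0.13. Rrs1, an assembly factor of the large ribosomal subunit, went from 7.13, 7.10 and 7.45 to 8.41, 7.95 and 8.35, a rise of 1.01 ± 0.23 (adjusted p = 0.0195). Ddx21, a nucleolar helicase, went from 7.97, 7.99 and 8.19 to 8.78, 8.76 and 8.74 (change 0.71 ± 0.13, adjusted p = 0.0101). Tsr1 and Emg1, which act in the assembly of the small subunit, rose by 0.75 and 0.64. Ncl, nucleolin, changed by 0.45 ± 0.26 and was not called (adjusted p = 0.259). Odc1, the polyamine enzyme and a textbook target of Myc, read 8.25, 8.13 and 8.30 and then 8.27, 8.12 and 8.41, a change of 0.04 ± 0.21 (adjusted p = 0.922). It remained below the untreated level of 9.07 ± 0.36 (difference -0.81, adjusted p = 0.00814).

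Translation factors and tRNA synthetases had 7 of 60 members called higher (11.7%, against 4.52% of all genes) and 0 lower. Tars, the synthetase for threonine, went from 6.65, 6.30 and 6.75 at 21 days on to 7.46, 7.45 and 7.70 at 4 days off, a rise of 0.97 ± 0.18 (adjusted p = 0.0101). Hars, that for histidine, rose by 0.97 ± 0.23 (adjusted p = 0.0245), and Rars, that for arginine, by 0.61 ± 0.18 (adjusted p = 0.0498). The initiation factors Eif1ax and Eif3c rose by 1.03 and 0.64 (adjusted p = 0.0471 and 0.0408). Cytosolic ribosomal proteins had 0 of 33 called higher and 3 lower (9.09%, against 2.39% of all genes). These were Rps20, Rps14 and Rps29, with changes of -0.44, -0.42 and -0.39. The probe sets called for Rps20 and Rps14 read 4.84 and 4.81 at 4 days off, no brighter than the brightest bacterial control.

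Some genes of the mitochondria were called higher. Ribosome and import genes of the mitochondria had 8 of 59 called higher (13.6%, against 4.52% of all genes) and 0 lower, and oxidative phosphorylation had 8 of 66 called higher (12.1%) and 1 lower (1.52%, against 2.39% of all genes). Mrpl2, of the mitochondrial ribosome, went from 7.51, 6.90 and 7.75 to 8.83, 8.41 and 8.45 (change 1.18 ± 0.20, adjusted p = 0.00846), and its other probe set changed by -0.20 (adjusted p = 0.232). Ndufb6, a subunit of complex I, read 7.85, 7.86 and 7.94 at 21 days on and 9.03, 8.62 and 8.84 at 4 days off, a rise of 0.95 ± 0.16 (adjusted p = 0.00846). The complex II subunits Sdhb and Sdha rose by 0.77 and 0.67 (adjusted p = 0.0154 and 0.0468). Ndufb6, Sdhb and Sdha were already above untreated islets at 21 days on, by 0.71, 0.65 and 0.65, and at 4 days off they stood 1.66, 1.42 and 1.32 above it (adjusted p of 0.000101 or below).

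Cox6b2, a subunit of complex IV that is usually confined to testis, went the other way. It read 9.02, 9.17 and 9.11 at 21 days on and 8.11, 7.89 and 8.09 at 4 days off, a fall of 1.07 ± 0.23 on the log2 scale (adjusted p = 0.0163). Untreated islets were at 6.01 ± 0.23, a level not shown to stand above background. Cox6b2 was 3.09 above it at 21 days on and 2.02 above it at 4 days off (adjusted p = 1.34e-05), differences whose size depends on that level. Its other probe sets changed by -0.54 and -0.37 without a call.

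Among metabolic genes, 3 of 22 of cholesterol synthesis were called higher (13.6%, against 4.52% of all genes) and 0 lower. Msmo1, a sterol oxidase, went from 6.70, 6.40 and 6.76 to 8.39, 7.99 and 7.66, a rise of 1.39 ± 0.27 (adjusted p = 0.0104). Sqle, which makes the first sterol precursor with an oxygen, went from 8.97, 8.78 and 8.49 to 9.59, 9.61 and 9.56 (change 0.84 ± 0.16, adjusted p = 0.0101). Idi1, which makes an isoprenoid building block, rose by 1.07 ± 0.25 (adjusted p = 0.0217). All 3 stood above untreated islets at 4 days off, by 0.96 for Msmo1, 1.30 for Sqle and 1.23 for Idi1. In sugar metabolism, Taldo1 of the pentose phosphate pathway rose by 1.03 ± 0.24 (adjusted p = 0.0201). Pdha1, of the enzyme that feeds pyruvate into mitochondria, rose by 0.89 ± 0.22 (adjusted p = 0.0247).

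Few genes of beta cell function were called between 21 days on and 4 days off. The list for glucose sensing had 2 of 20 members called higher, Abcc8 and Hadh (10%, against 4.52% of all genes), and 1 lower, the glucagon receptor Gcgr, with a change of -0.44 (adjusted p = 0.0412). Its median change was -0.06, the same as over all genes, and 12 of the 20 members lay at or below 0. The list of islet hormones and peptides had 0 of 15 called higher and 2 lower, Cck and Dlk1 (13.3%, against 2.39% of all genes). Abcc8 encodes the sulfonylurea receptor, a subunit of the potassium channel that couples glucose metabolism to insulin release. It read 9.97, 9.50 and 10.13 at 21 days on and 11.52, 11.79 and 11.37 at 4 days off, a rise of 1.69 ± 0.30, or 3.23-fold (adjusted p = 0.00846). At 4 days off it differed from the untreated level of 11.75 ± 0.19 by -0.19 (adjusted p = 0.701), and at 21 days on by -1.88 (adjusted p = 0.000421). The other Abcc8 probe set, at about 7, changed by 0.05 ± 0.10 (adjusted p = 0.784), and Kcnj11, the other subunit of the channel, by -0.18 (adjusted p = 0.147). Hadh, a fatty acid enzyme whose loss causes excess insulin release, went from 10.04, 9.60 and 10.04 to 10.96, 10.96 and 11.07 (change 1.10 ± 0.27, adjusted p = 0.0262).

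Genes of the secretory granule had 4 of 22 members called higher and 0 lower. Th, the enzyme that starts the synthesis of dopamine and is made in a part of mouse beta cells, read 8.06, 7.83 and 8.59 at 21 days on and 9.61, 9.34 and 9.61 at 4 days off. The rise was 1.36 ± 0.29 (adjusted p = 0.0154), and Th remained 0.87 below untreated on the log2 scale (10.39 ± 0.29, adjusted p = 0.0322). Chga, chromogranin A of the granule core, went from 12.74, 12.45 and 12.55 to 12.93, 13.30 and 13.11 (change 0.53 ± 0.13, adjusted p = 0.0273). A second Chga probe set changed by -0.02 (adjusted p = 0.946). Sytl4, granuphilin, which docks insulin granules, rose by 0.86 ± 0.21 (adjusted p = 0.0273), and its other probe set rose by 0.95 (adjusted p = 0.0221). Pcsk1, which cuts proinsulin, went from 7.43, 6.87 and 7.96 to 8.43, 8.69 and 8.84 without overlap, and its change of 1.23 ± 0.37 missed the threshold (adjusted p = 0.0516).

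The genes most used to define beta cells were not called. Slc2a2, the glucose transporter, read 9.04, 8.66 and 8.98 and then 9.35, 10.03 and 10.01, a change of 0.90 ± 0.42 (adjusted p = 0.162). Pdx1, a transcription factor that beta cells need, changed by 0.35 ± 0.20 (adjusted p = 0.247) and stayed below untreated islets by 0.66 on the log2 scale (adjusted p = 0.0186). Ins2 changed by 0.02 ± 0.11 (adjusted p = 0.940), and its other probe set by 0.26 (adjusted p = 0.124). The brighter Ins2 probe set has a name that marks probes possibly shared with related transcripts. It lies near the highest mean level of any gene (14.05), and whether its signal was saturated was not tested. Among 20 beta cell transcription factors 0 were called higher and 1 lower, Sox4 (0% and 5%, against 4.52% and 2.39% of all genes). With 20 members this count is too small to set apart from those shares. Markers of other islet cells, Gcg of alpha cells, Sst of delta cells and Ppy of PP cells, changed by 0.96 ± 0.88, 0.18 ± 0.47 and -0.08 ± 0.58 and were not called. Gcg in particular spread from 6.67 to 10.16 among the arrays at 21 days on.

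**Figure D4:**
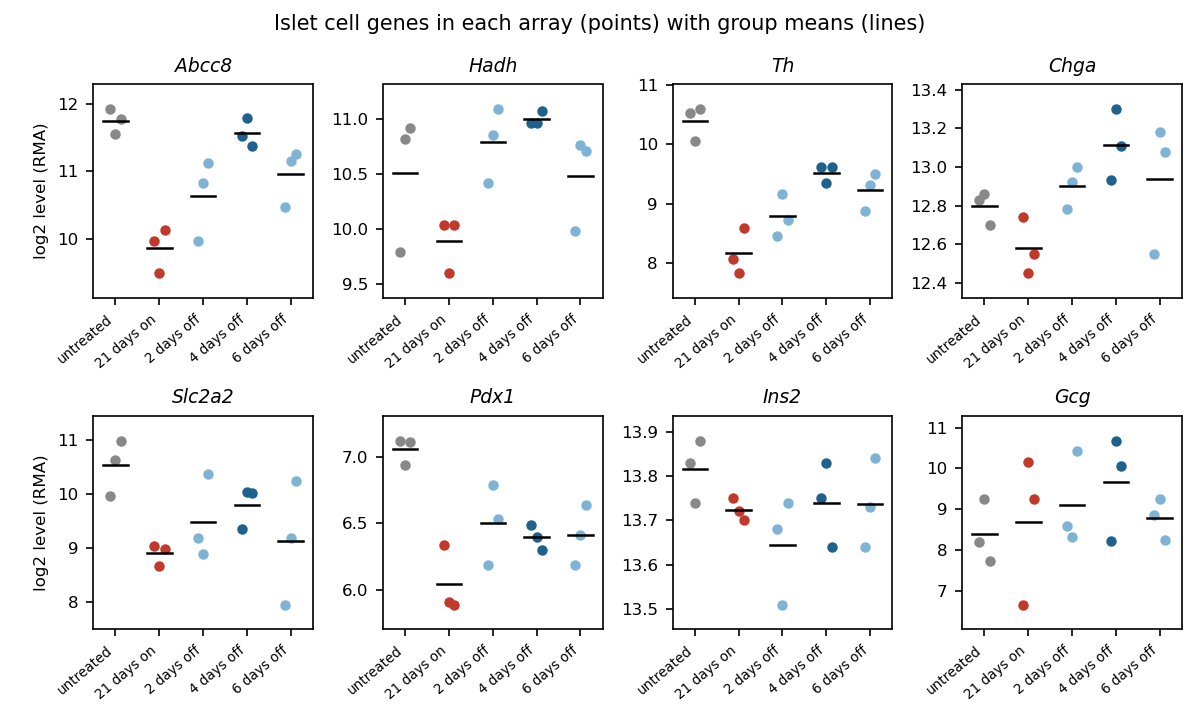
Log2 level of 8 islet genes in each of the 3 arrays of 5 groups (points) with group means (lines). Abcc8 goes from 9.50 to 10.13 at 21 days on up to 11.37 to 11.79 at 4 days off, near untreated islets, while Pdx1 (6.40 on average at 4 days off) stays below untreated (7.06) and Ins2 varies by under 0.4 over all arrays shown.

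Most genes of mitosis read lower at 4 days off, but few passed the test. The list had 4 of 52 members called lower (7.69%, against 2.39% of all genes) and 0 higher, a median change of -0.53, and 48 members at or below 0. In 37 of the 52 all arrays at 4 days off lay below all at 21 days on, against 24.2% of all genes. The number called lower was 27 in a fit of the 6 arrays alone and 16 without replicate 2 of 2 days off and replicate 1 of 6 days off together, arrays that stand apart from their groups by high mitosis, leukocyte and red cell marker levels. It was 1 when the Gapdh measure entered the fit, 2 with median centring, 2 with quantile normalization and 2 with acinar and leukocyte marker levels as covariates. It was 0 without either of replicate 1 of 4 days off and replicate 2 of 21 days on, 1 without either of replicate 3 of 4 days off and replicate 1 of 21 days on, and 2 without replicate 2 of 4 days off. At 21 days on, 12 of the 52 were called higher than untreated and 0 lower (23.1% and 0%, against 7.95% and 8.46% of all genes). At 4 days off 3 were called higher than untreated and 2 lower (5.77% and 3.85%, against 14.1% and 12.3% of all genes).

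Kifc1, a kinesin motor of the spindle, read 9.79, 10.27 and 9.82 at 21 days on and 8.57, 8.79 and 8.77 at 4 days off, a fall of 1.25 ± 0.22 on the log2 scale (adjusted p = 0.00846). Kif20a, a kinesin needed for the division of the cell body, went from 8.19, 8.29 and 8.18 to 7.25, 7.17 and 7.28 (change -0.99 ± 0.24, adjusted p = 0.0247), and a second Kif20a probe set changed by -0.81 (adjusted p = 0.0789). Both motors were then near untreated islets, with differences of -0.11 and -0.28 that were not called. The probe sets of both carry names that mark probes possibly shared with related transcripts. Ect2, which positions the cleavage furrow, went from 6.04, 5.56 and 6.44 to 5.07, 4.80 and 5.32 and was also called (change -0.95 ± 0.28). Ttk, a checkpoint kinase, fell by 0.46 ± 0.13 on the log2 scale (adjusted p = 0.0475).

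The best known proliferation marker showed the largest drop in the list without passing. Mki67 read 6.69, 6.91 and 7.57 at 21 days on and 4.90, 4.69 and 5.83 at 4 days off, and the groups did not overlap. Its change of -1.92 ± 0.74 was not called (adjusted p = 0.107), with arrays at 6 days off that differed among themselves by an SD of 2.18. A second Mki67 probe set went from 6.68 to 6.33 on average, a change of -0.36 (adjusted p = 0.111). Top2a, which untangles chromosomes, changed by -1.04 ± 0.56 (adjusted p = 0.222), and Cdc20, Stmn1 and Aurka by -0.92, -0.99 and -0.74 without a call. DNA replication genes had 0 of 64 called in either direction, with a median change of -0.10, and Pcna changed by 0.02 ± 0.37 (adjusted p = 0.982). Gtse1, a mitotic protein that restrains p53, went from 8.39, 8.20 and 8.21 to 7.59, 7.54 and 7.80, a fall of 0.62 ± 0.12 on the log2 scale (adjusted p = 0.0101). The cell cycle brakes Cdkn1a and Cdkn1b changed by -0.05 and -0.11 and the cyclins Ccnd1 and Ccnd2 by 0.09 and -0.28, without a call. The other probe sets for Cdkn1a, Cdkn1b and Ccnd1 changed by -0.56, -0.13 and -0.19, also without a call (adjusted p = 0.159, 0.516 and 0.194).

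Sox4, a transcription factor of development that is active in immature and dividing cells, had the largest fall of all called genes. It read 10.22, 10.36 and 9.09 at 21 days on and 7.71, 8.39 and 8.60 at 4 days off, a change of -1.66 ± 0.29, or 3.15-fold lower (adjusted p = 0.00846). The untreated mean was 8.27 ± 0.32, from which 4 days off differed by -0.04 (adjusted p = 0.945). A second Sox4 probe set fell by 0.71 (adjusted p = 0.0438).

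FoxO targets and genes that restrain growth had 4 of 38 members called lower and 0 higher, with a median change of -0.21. Txnip, which blocks glucose uptake and thioredoxin, read 9.90, 9.78 and 9.95 at 21 days on and 8.81, 9.06 and 9.33 at 4 days off (change -0.81 ± 0.20, adjusted p = 0.0247), and its other probe set changed by -0.45 (adjusted p = 0.0787). Foxo3, a transcription factor held back by insulin signalling, went from 9.23, 9.10 and 9.20 to 8.59, 8.62 and 8.34 (change -0.66 ± 0.17, adjusted p = 0.0349). Both had been above untreated islets at 21 days on, by 1.37 for Txnip and 1.60 for Foxo3, and both still were at 4 days off, by 0.56 (adjusted p = 0.040) and 0.94 (adjusted p = 0.000712). The insulin receptor substrates Irs2 and Irs1 fell by 0.42 and 0.38 on the log2 scale, close to the band of small falls seen at all levels. Ddit4, an inhibitor of the growth kinase mTORC1, went from 9.96, 10.21 and 10.09 to 9.32, 9.34 and 8.44 (change -1.05 ± 0.27, adjusted p = 0.0315), below untreated islets by 0.88 on the log2 scale (adjusted p = 0.0227).

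Several genes that stood above untreated islets at 21 days on fell by 4 days off, some to a level still above untreated and some to one that did not differ from it with a call. Dlk1, an imprinted gene of immature endocrine and stromal cells, read 11.39, 11.49 and 11.04 at 21 days on and 9.92, 10.87 and 9.96 at 4 days off, a change of -1.06 ± 0.29 (adjusted p = 0.0392). Untreated islets were at 7.61 ± 0.18, and Dlk1 was still 2.64 above them (adjusted p = 9.08e-06). Cidea, a lipid droplet protein of fat cells that was first described as a death factor, went from 8.43, 8.99 and 9.39 to 7.44, 8.22 and 7.92 (change -1.08 ± 0.24, adjusted p = 0.0187), against 6.34 ± 0.02 untreated. The fat cell marker Adipoq was at 4.72 and 4.57 in the groups, near the median of the bacterial controls. Cck, a peptide hormone, went from 6.56, 6.19 and 6.90 to 5.36, 5.74 and 5.74 (change -0.94 ± 0.22, adjusted p = 0.0229), and Stmn4, a tubulin-binding protein, fell by 1.07 ± 0.21 on the log2 scale (adjusted p = 0.0124). Neither Cck nor Stmn4 differed from untreated with a call at 4 days off (differences of -0.04 and 0.49).

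Other genes that stood below untreated islets at 21 days on were not called between 21 days on and 4 days off. Mx1, an interferon-induced protein, read 4.21, 4.41 and 4.31 and then 4.14, 4.74 and 4.21, a change of 0.05 ± 0.41 (adjusted p = 0.949), against 8.07 ± 0.32 in untreated islets. Papss2, which activates sulfate, was at 5.40 ± 0.22 and 6.04 ± 0.18, a change of 0.63 ± 0.32 that was not called (adjusted p = 0.204), against 8.62 ± 0.76 untreated. Neither was brighter than the brightest bacterial control in these groups, so that no movement can be read from them.

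**Figure D5:**
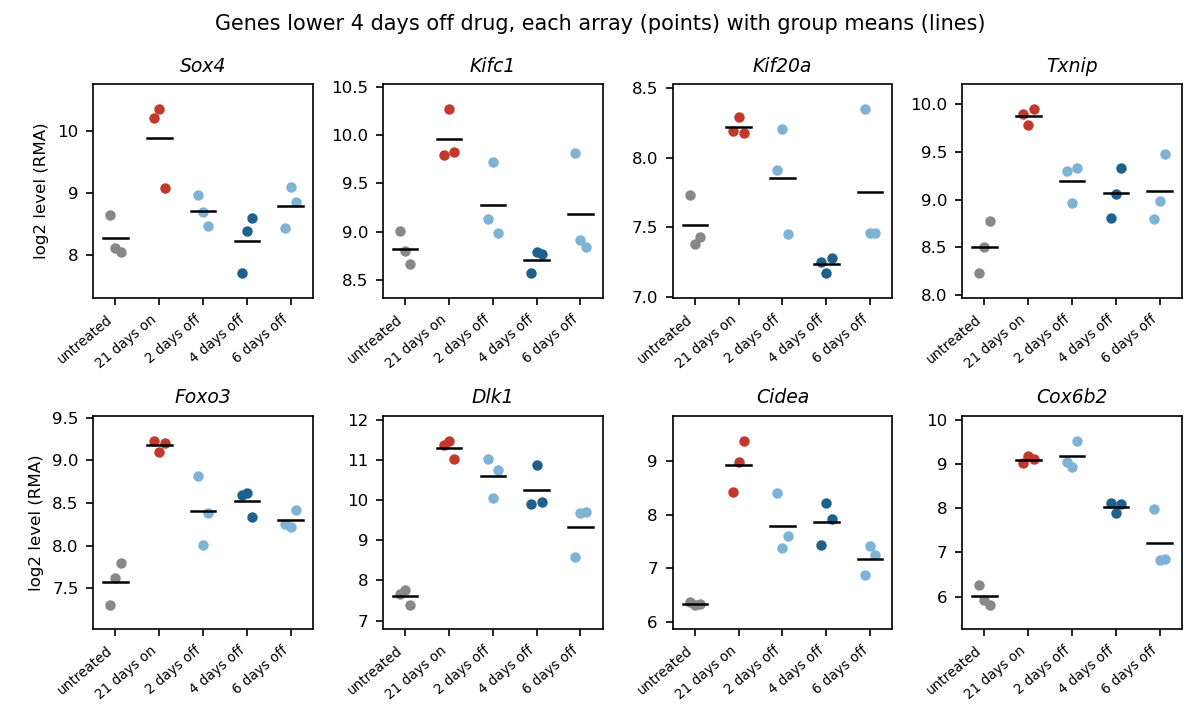
Log2 level of 8 genes called lower at 4 days off, in each of the 3 arrays of 5 groups (points) with group means (lines). Sox4 and Kifc1 are near untreated islets at 4 days off (8.23 against 8.27, and 8.71 against 8.82), while Dlk1, Cidea and Cox6b2 remain above untreated, at 10.25 against 7.61, 7.86 against 6.34 and 8.03 against 6.01.

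The largest rise of any called gene was that of Nid2, a basement membrane protein. Nid2 read 3.99, 3.58 and 3.87 at 21 days on and 5.61, 5.91 and 6.26 at 4 days off, a change of 2.11 ± 0.42 (adjusted p = 0.0124). Its levels at 21 days on lie at the median of the bacterial controls, so that the size of the change is uncertain. Plpp1, a lipid phosphatase, went from 7.74, 7.23 and 8.23 to 9.38, 9.15 and 8.90 (change 1.41 ± 0.23, adjusted p = 0.00846), with -0.17 in its other probe set. Nfkbiz, a regulator of NF-kappaB, went from 6.88, 6.66 and 6.98 to 8.73, 8.07 and 7.94 (change 1.41 ± 0.29, adjusted p = 0.0139). Dcx, doublecortin, a microtubule protein of young neurons, went from 7.45, 7.33 and 7.35 to 8.62, 8.67 and 9.01 (change 1.39 ± 0.30, adjusted p = 0.0158). Il1r1, the interleukin-1 receptor, rose by 1.17 ± 0.26 (adjusted p = 0.0185), back to a level that differed from untreated by 0.13 without a call. Pnp, a purine salvage enzyme, Aass, a lysine-degrading enzyme, and Sacm1l, a lipid phosphatase of the ER and Golgi, rose by 1.39, 1.30 and 1.29.

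Among the largest falls outside the lists, Serpina1e, a copy of the antitrypsin gene, went from 7.98, 7.83 and 9.33 to 6.84, 7.09 and 6.86 (change -1.45 ± 0.32, adjusted p = 0.0173). The antitrypsin copies are nearly identical, and the probe set may read several of them. Midn and the ion exchanger Slc9b2 changed by -0.83 and -0.88, and 2700099C18Rik by -1.30 ± 0.36 (adjusted p = 0.0392).

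Few markers of other cells that an islet section can hold were called. Acinar, ductal, endothelial and red cell lists had 0 members called in either direction, of 26, 25, 39 and 10 measured. The stroma and Schwann cell list had 1 of 34 called higher (2.94%, against 4.52% of all genes) and 0 lower. The call was Pdgfrb, with a change of 1.04. Lymphoid and myeloid lists had 1 of 39 and 0 of 58 called lower and 0 higher, with median changes of -0.20 and -0.18. The mean over the list was 6.18 to 6.34 at 21 days on and 6.08 to 6.14 at 4 days off for lymphoid markers, and 6.66 to 6.88 against 6.55 to 6.58 for myeloid markers, so that 4 days off was lower in each array. The part of these shifts in the falls of immune genes was not tested. The defining markers Ptprc, Csf1r, Lyz2, Itgam, Cd3e and Cd79b changed by -0.14, -0.15, -0.12, -0.28, -0.3 and 0.03 without a call. For Itgam and Cd3e all arrays at 4 days off lay below all at 21 days on. The same held for 21 of 39 lymphoid and 17 of 58 myeloid list members, against 24.2% of all genes. The defining mast cell markers Kit, Cpa3 and Cma1 changed by -0.5, -0.42 and -0.28, lower without overlap but not called. Mast cell markers had 2 of 14 called lower (14.3%, against 2.39% of all genes), Mcpt2 and Tpsab1, with changes of -0.51 and -0.33, at levels (3.90 and 5.90) no brighter than the brightest bacterial control. Fat cell markers had 2 of 16 called lower (12.5%) and 0 higher, Cidea and the hormone gene Lep, with changes of -1.08 and -0.28. Chemokines and interleukins had 4 of 80 called lower (5%) and 1 higher, Il1r1. Those lower were Ccl1, Cxcl14, Il3 and Il10, with changes between -0.42 and -0.31. With acinar and leukocyte marker levels as covariates, 534 genes were called over all genes, 447 of them among the 570.

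Genes of cell death and of the vessel and matrix surroundings gave few calls. The Bcl2 family and apoptosis list had 2 of 43 called lower (4.65%, against 2.39% of all genes), Cidea and Bak1 (-0.34), and 0 higher. Bcl2l1, the gene for BclXL, changed by 0.22 (adjusted p = 0.171). The p53 and cell cycle inhibitor list had 2 of 25 called higher, Gadd45g and Gadd45a (0.65 and 0.60), and 2 lower, Ddit4 and Gtse1. Each was 8% of the list, against 4.52% of all genes called higher and 2.39% called lower. Vegfa, the main growth factor of blood vessels, went from 7.66, 7.17 and 7.67 to 8.49, 8.37 and 8.09 without overlap, and its change of 0.82 ± 0.27 missed the threshold (adjusted p = 0.0714). The endothelial marker Pecam1 changed by -0.36 (adjusted p = 0.0650) and Kdr, a receptor of Vegfa, by 0.25 (adjusted p = 0.246). Matrix genes had 5 of 72 called higher (6.94%, against 4.52% of all genes) and 0 lower, with a median change of -0.08 and 40 members at or below 0. Arrays did not overlap for 14 higher and 22 lower members of the 72, where the shares over all genes were 16.0% and 24.2%. Those called higher included Lama2 of the basement membrane (0.75 ± 0.20, adjusted p = 0.0356) and Vtn (0.67 ± 0.16, adjusted p = 0.0249). The cell adhesion list had 3 of 53 called higher (5.66%, against 4.52% of all genes) and 1 lower (1.89%, against 2.39%). Its median change was -0.12, and 38 members lay at or below 0. The catenins Ctnnb1 and Ctnna1, which anchor cell junctions, were among those called higher, with changes of 0.84 and 0.62. Cdh1, E-cadherin, changed by -0.31 without a call (adjusted p = 0.105).

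The E-box CACGTG, to which Myc binds with its partner Max, was searched for in the same promoter windows. It was found, on both strands since it is a palindrome, in 11.5% of the 6572 measured genes with a window. The share was 10.5% of genes called higher (32 of 304) and 8.55% of genes called lower (13 of 152). It was 22.4% in the ribosome biogenesis list (13 of 58) and 0 of 15 in the ER folding genes called higher. Binding of Myc was not measured.

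The neighbouring days off drug did not differ from 4 days off with a call. Between 4 and 2 days off limma called 0 genes (476 at an unadjusted p under 0.05, lowest adjusted p 0.454). Between 6 and 4 days off it called 0 genes (1600 at an unadjusted p under 0.05, lowest adjusted p 0.102), and up to 15 when 1 array was left out, replicate 2 of 6 days off. Hspa5, as an example, was at 10.05 ± 0.30 at 21 days on, 10.70 ± 0.35 at 2 days off, 11.44 ± 0.16 at 4 days off and 10.79 ± 0.73 at 6 days off. Sox4 was at 9.89 ± 0.70, 8.71 ± 0.25, 8.23 ± 0.47 and 8.80 ± 0.33 in the same order. Against untreated islets, 2183 genes were called at 4 days off (26.5%), 1167 higher and 1016 lower, and 1354 at 21 days on (16.4%), 656 higher and 698 lower, or 882 in all without replicate 2 of 21 days on. These counts share the untreated arrays, and a difference between them was not tested.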

How the data were processed

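Laser-captured mouse islets were measured on 27 arrays in 9 groups of 3. Per the submitters' processing notes, the authors made the deposited log2 levels per probe set with RMA. The RMA version and options were not given in the sources used here. No further normalization was applied. Of 12488 probe sets, 66 controls were left out and 12422 tested. GEO's annotation gave 1 gene symbol to 10833, several to 396 and none to 1193, and the probe set with the highest mean stands for each of 8251 genes. limma 3.58.1 (R 4.3.3; lmFit, eBayes) was fitted to all 27 arrays with 9 group means and 18 residual degrees of freedom. P-values are two-sided and Benjamini-Hochberg adjusted over all tested probe sets, and genes were called under 0.05. The procedure was tested on simulated data. A permutation test of 3 against 3 arrays cannot go below 0.1 and was not used.

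The genes and the 40 lists (1627 of 2047 symbols measured) were chosen with earlier results of these data known. Named genes were the 15 largest rises and falls without overlap, up to 5 called members of each list (3 by unadjusted p where none was called), 35 measured genes of a panel, and up to 6 in each direction also called against untreated. Genes named outside this rule were chosen after their values were seen: the ER genes so marked, those of the transport paragraph, Baiap2, Utrn, Mrpl41, Txnrd2, Cdc20, Stmn1, Aurka, Ppy, Adipoq, Kit, Cpa3, Cma1 and the leukocyte markers. Promoters are RefSeq windows of GRCm38.p6, and the ER stress element was added after seeing the data.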

Additional observations from a re-analysis of the deposited data

How the results depend on the processing

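No named gene that was called changed sign under the settings tried, but the split of the calls turned in some. It went from 373 higher and 197 lower to 1022 and 1339 with array weights. For 4 days off against untreated it went from 1167 and 1016 to 1073 and 1086 with quantile normalization, and for 21 days on against untreated from 656 and 698 to 444 and 438 without replicate 2 of 21 days on. The 570 calls became 513 with median centring, 400 with quantile normalization, 468 with trended and robust variances, 700 with the 6 arrays alone, 535 without the dimmest 40% of probe sets and 553 with the mean over a gene's probe sets. They became 295 with the Gapdh measure as a covariate, 70 with a 2-fold minimum, and 2361 with those weights, whose estimation did not fully converge. Chosen after seeing the data, the Eif2s3y covariate gave 381 and leaving out replicate 2 of 2 days off and replicate 1 of 6 days off gave 630. Leaving out each array in turn gave 0 to 771 calls, 0 to 19 ER folding and 0 to 9 proteasome genes called higher, and 0 to 5 mitosis genes called lower. For the other comparisons it gave 882 to 1219 calls at 21 days on against untreated and 0 to 15 between 6 and 4 days off.

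ER folding genes called higher were 9 with a 2-fold minimum and 14 to 27 in the other settings with all 6 arrays. Proteasome genes called higher were 4 with the Gapdh covariate and 2 with a 2-fold minimum. Mitosis genes called lower were 2 with median centring, 2 with quantile normalization, 2 with acinar and leukocyte covariates, 2 with the Eif2s3y covariate, 1 with the Gapdh covariate and 1 with a 2-fold minimum. They were 22 with array weights, 27 with the 6 arrays alone and 16 without the 2 arrays that stood apart. The cause of these differences was not tested.

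Replicate numbers did not pair the arrays: deviations of same-numbered arrays correlated with r of -0.092, 0.209 and -0.213. With the replicate block, 559 genes were called (380 higher and 179 lower), with 19 ER folding, 11 proteasome and 4 mitosis genes. The block gave 1385 calls at 21 days on and 2227 at 4 days off against untreated, and 0 between 4 and 2 and between 6 and 4 days off. The number of arrays and the dim signal of many probe sets limit what could be called.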

Other observations

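Of 53 measured genes of vesicle transport between the ER and the Golgi, 13 rose at 4 days off against 21 days on (24.5%, against 4.52% of all genes), 0 fell and 40 were not called. This list was assembled after its values were seen, and its counts are a description. The median change was 0.39, and 47 members lay above 0. Kdelr2 and Gosr1, a receptor that returns ER proteins and a fusion protein of the Golgi, were among those below it (-0.21 and -0.23). Sec23ip, which marks the sites where transport vesicles leave the ER, read 7.97, 7.63 and 7.73 at 21 days on and 8.83, 8.61 and 8.49 at 4 days off. Its change of 0.87 ± 0.12 had the lowest adjusted p of all genes (0.00369, limma). Sec23b, a coat subunit of these vesicles, went from 9.67, 9.64 and 9.93 to 11.01, 10.74 and 10.52, a rise of 1.01 ± 0.16, or 2.01-fold (adjusted p = 0.00846). Neither gene had overlapping groups. Sec13 and Sec31a of the outer coat rose by 0.68 and 0.73, and Sar1a and Sar1b, the GTPases that start the coat, by 0.64 and 0.73. Uso1 and Trappc4, which tether vesicles at the Golgi, rose by 0.78 and 0.85, and Gosr2, which fuses them there, by 0.72. Lman1 and Mcfd2, a cargo receptor and its partner, rose by 0.75 and 0.60, and Cope and Copg1, of the coat for the way back to the ER, by 0.86 and 0.81. Without replicate 1 of 4 days off none of these genes was called, while Sec23ip, Sec23b, Sec13, Gosr2 and Trappc4 were called in each of the other 5 fits that left out 1 array.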
